A study of Mus musculus with 12 samples.

Results

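The genes described are the collagen genes, taken as every row of the expression table whose gene name is Col followed by a type number, the letter a and a chain number. There were 38 of them among 29428 genes, and 6 of the 44 genes in a list of mouse collagens were not analysed here. RNA-seq libraries were made from 2 immortal mouse striatal cell lines, STHdhQ7/Q7 with 7 glutamine repeats in huntingtin and STHdhQ111/Q111 with 111. Cells of both lines were grown at 33 °C in medium with 10% fetal bovine serum, within 20 passages, and were either left untreated, giving the groups Q7-C and Q111-C, or exposed for 24 h to 5 µg/mL LPS and 100 ng/mL IFNγ together, giving Q7-T and Q111-T. Each of the 4 groups had 3 libraries, and each genotype was represented by a single line, so the repeat length and any other difference between the lines cannot be told apart. The study's text calls the libraries of a group biological replicates without saying how the cultures were separated, and p-values measure the spread between these libraries.

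Collagens are secreted proteins whose chains wind around each other into a long helix, and each chain is the product of its own gene. Fibril-forming collagens (I, II, III, V and XI) assemble into the banded fibrils of connective tissue, collagen IV builds the network of basement membranes, and collagen VI forms beaded filaments close to the cell surface. Collagen VII anchors basement membranes, collagens VIII and X form hexagonal networks, the fibril-associated collagens (IX, XII, XVI, XX and others) decorate fibrils, and collagens XV and XVIII carry an antiangiogenic fragment at their end. In brain, most collagen is made by cells of the vessels and meninges. IFNγ is known to repress type I collagen transcription in fibroblasts.

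Of the 38 collagen genes, 29 reached at least 0.5 TPM (a level corrected for how long a transcript is and how much was sequenced) in at least 3 libraries and were tested, and 22 had a mean of at least 1 TPM over the 12 libraries. Of the 29, 7 reached that minimum in 1 of the 2 lines only, and 4 in 1 group only, so that they entered through the group in which they are high. Total estimated counts ranged from 57505990 to 96417834 over the libraries. The lines come from striatal neuron precursors, but of the 7 neuron markers in the table, Gad1, Gad2, Snap25 and Syt1 were under 0.5 TPM in all 12 libraries. Tubb3, a tubulin of neurons, was present at 16.2 to 17.8 TPM in Q7-C, 57.9 to 83.6 in Q7-T, 2.56 to 4.88 in Q111-C and 23.1 to 26.6 in Q111-T, and Map2 reached 10.6 TPM. All 4 microglia or macrophage markers in the table were also under 0.5 TPM throughout, and no endothelial, oligodendrocyte or Schwann cell marker was tested. The 8 fibroblast or mesenchymal markers, which hold no collagen, summed to between 1772 and 4218 TPM, most of it Vim, and Fap and Thy1 were under 0.5 TPM throughout.

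A pair of libraries stood furthest from the rest of their groups. In Q7-C replicate 1 and Q7-T replicate 2, genes with long transcripts were low: with the genes in 4 equal classes by length, the median deviation of the longest class lay -0.723 and -1.09 (log2) from that of the shortest, against -0.185 to 0.300 in the other 10 libraries. The lowest of these 10 was Q111-T replicate 2, which also stood apart within its group, at -0.185 against 0.233 and 0.300. Collagen transcripts are long, with a median of 5595 bases over the 29 genes tested against 2816 over all genes, and 24 of the 29 were in the longest class. The part of transcript length in the results was not tested, and values without both libraries are given below. The scale matters as well: on log2(TPM + 0.5) the median of all genes tested differed from 0 by 0.274 between the control groups of the lines, by 0.341 between the treated groups, and with treatment by -0.162 in STHdhQ7 and -0.101 in STHdhQ111 cells, whereas after TMM scaling it lay between -0.029 and 0.003. The log2 fold changes given are those of edgeR after TMM scaling, except the few named as limma, which carry the shift, or as DESeq2, which has its own size factors.

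Collagen transcripts made up a larger share of the RNA of STHdhQ111 cells than of STHdhQ7 cells, and a smaller share after IFNγ/LPS in both lines. The TPM of the 38 genes summed to 694, 996 and 1107 in the Q7-C libraries and to 4094, 4592 and 4473 in Q111-C. After treatment the sums were 527, 238 and 510.1 in Q7-T and 1385, 866 and 1388 in Q111-T. All Q111 libraries therefore lay above the Q7 libraries of the same condition, and all treated libraries below the control libraries of the same line. The ratio of the mean sums was 4.70 ± 1.11 (SD propagated, n = 3 per group) for Q111-C vs. Q7-C and 2.85 ± 1.30 for Q111-T vs. Q7-T. It was 0.456 ± 0.203 for Q7-T vs. Q7-C and 0.277 ± 0.0704 for Q111-T vs. Q111-C. The sums are in TPM and carry the shift of all genes given above. Over all alternatives, TPM rescaled by the median of ratios among them, the ratio ran from 3.31 to 5.19 between the control groups. Its range was 2.23 to 3.26 between the treated groups, 0.401 to 0.556 in the STHdhQ7 response and 0.257 to 0.336 in the STHdhQ111 response. No p-value is given for these sums, since the genes were chosen with earlier results of these data known. Without the 2 libraries that stood apart, the ratios were 4.17 ± 0.397, 2.34 ± 0.582 and 0.493 ± 0.0385 for the 3 comparisons that hold them. In these bulk libraries, fewer cells that make a collagen and less collagen RNA per cell cannot be told apart.

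The make-up of the sum differed as well. Collagen VI accounted for 17.7 ± 1.47% of the summed collagen TPM in Q7-C (SD, n = 3) and for 54.7 ± 0.297% in Q111-C, where Col6a1 alone held 38.5 ± 0.101%. In Q111-T its share was 33.7 ± 0.384%. Fibril-forming collagens held 46.5 ± 4.41% of the sum in untreated and 37.9 ± 1.07% in treated STHdhQ7 cells, and 36.6 ± 0.511% in untreated and 47.4 ± 1.45% in treated STHdhQ111 cells. The collagen IV share was 16.8 ± 2.30% in Q7-C against 4.78 ± 0.132% in Q111-C, while the collagen IV genes themselves summed to 159 ± 53.5 and 209.8 ± 18.0 TPM in these groups, whose libraries overlapped. The fibril-forming collagens summed to 428 ± 70.6 and 1603 ± 73.4 TPM in the same groups without overlap, so that their lower share in Q111-C went with a higher level. The highest mean level belonged to Col1a1 in Q7-C and Q7-T and to Col6a1 in Q111-C and Q111-T. Without Col6a1, the ratio of the sums for Q111-C vs. Q7-C was 3.31 ± 0.773.

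**Figure D1:**
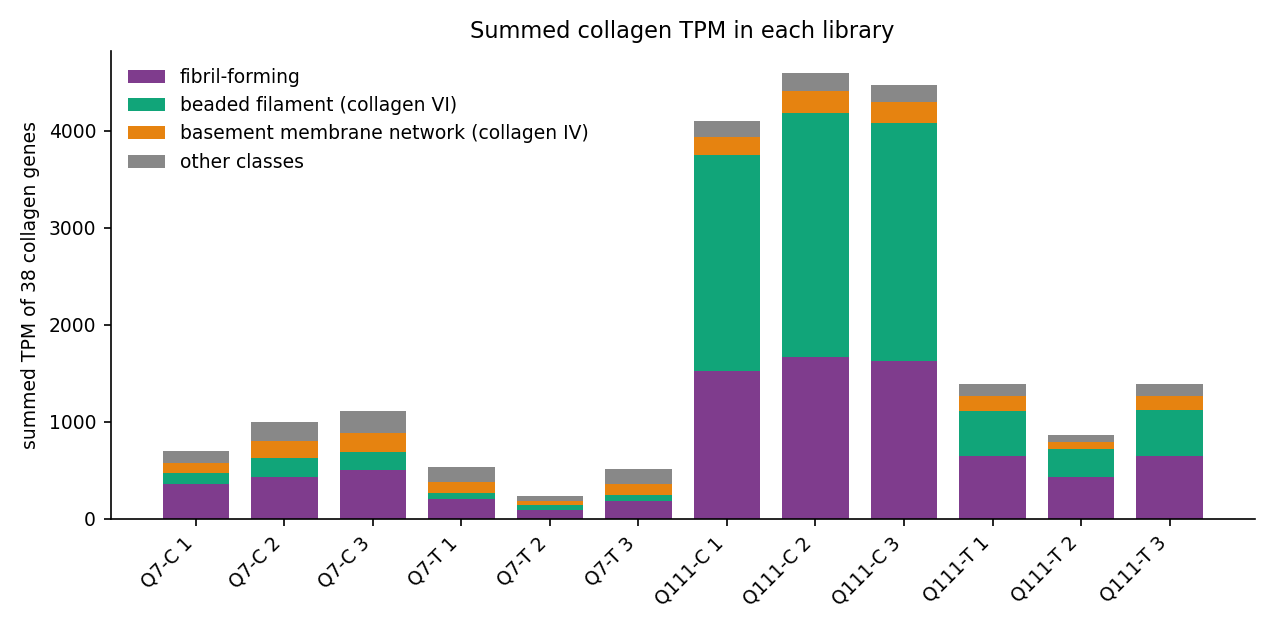
Each bar is 1 library and shows the summed TPM of the 38 collagen genes, stacked by class. The 3 Q111-C bars reach from 4094 to 4592 TPM and consist largely of collagen VI and fibril-forming collagens, while no Q7-C bar exceeds 1107 TPM.

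A gene was counted as upregulated or downregulated where edgeR's quasi-likelihood test gave a Benjamini-Hochberg adjusted p under 0.05 over all 16127 genes tested and the change was at least 2-fold. For Q111-C vs. Q7-C, 13 of the 29 collagen genes tested were upregulated and 4 downregulated, against 7.62% of all genes tested upregulated and 7.61% downregulated (15.2% in either direction). With both lines treated, the comparison Q111-T vs. Q7-T gave 13 upregulated and 3 downregulated genes, against 13.3% and 11.2% of all genes (24.5% in either direction). With limma on log2(TPM + 0.5) the counts were 13 upregulated and 2 downregulated in the former comparison and 14 and 0 in the latter, against 9.23% and 4.75% of all genes tested in the former and 18.2% and 4.81% in the latter. The median log2 fold change of the 29 genes was 1.19 and 1.17 in these comparisons, with medians of -0.02 and -0.03 over all genes. Upregulated in both were 11 of the 13 genes of either comparison, and 957 of all genes tested were, which is 77.9% of 1229 and 44.6% of 2145. Of the genes called upward between the control groups, Col2a1, Col15a1, Col28a1 and Col8a2 had reached the minimum in Q111 libraries only. The same held for Col2a1, Col28a1 and Col10a1 between the treated groups. They entered through the line in which they are high. Among the 22 genes with a mean of at least 1 TPM, 11 were upregulated and 3 downregulated between the control groups. For the treated groups these counts were 11 and 2, and the 22 include Col2a1 and Col15a1.

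The answer to IFNγ/LPS was mostly downward. In Q7-T vs. Q7-C, 10 of the 29 collagen genes were downregulated and 0 upregulated with edgeR (0 also with DESeq2, with limma and at an unadjusted p under 0.05), against 1.11% of all genes tested downregulated and 2.93% upregulated (4.04% in either direction). In Q111-T vs. Q111-C, 13 were downregulated and 2 upregulated, against 2.96% and 8.28% (11.2% in either direction). The median log2 fold change of the 29 genes was -0.84 in STHdhQ7 and -0.65 in STHdhQ111 cells. Downregulated in both lines were 9 collagen genes, 90.0% of the 10 in STHdhQ7 and 69.2% of the 13 in STHdhQ111 cells, while for all genes tested the 75 shared ones were 41.9% of 179 and 15.7% of 477. The difference between the responses of the lines, tested as the interaction of line and treatment in the same fit, passed both thresholds for 5 collagen genes, 3 upward and 2 downward, against 3.52% and 1.2% of all genes (4.71% in either direction). Without Q7-C replicate 1 and Q7-T replicate 2, a choice made after seeing the data, 17 genes passed in each comparison between the lines (17 and 16 with all libraries), 9 in the STHdhQ7 response (10 with all), 15 in the STHdhQ111 response (15 with all) and 6 in the interaction (5 with all). The shares of all genes called in either direction were then 16.4% and 22.4% between the lines, 4.53% and 13.4% in the responses and 8.52% in the interaction. Without Q111-T replicate 2 the counts were 16, 16, 9, 13 and 3, in the order control groups, treated groups, STHdhQ7 response, STHdhQ111 response and interaction, against 14.9%, 23.4%, 3.78%, 9.86% and 3.79% of all genes tested.

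Counted by library rather than by test, all 3 Q111-C libraries lay above all 3 Q7-C libraries for 20 of the 29 genes and below for 4, while the groups of 51.4% of all genes tested did not overlap. Between the treated groups the counts were 16 and 1 (46.3% of all genes). Treated libraries lay above control libraries for 0 genes and below for 14 in STHdhQ7 cells (14.4% of all genes in either direction), and for 6 and 17 in STHdhQ111 cells (49.6%). These counts use TPM without TMM scaling, and over all genes TPM was shifted upward in STHdhQ111 cells and downward with treatment. The 4 shares of all genes count both directions together, so the split by direction has no background beside it. A two-sided exact permutation test of 3 libraries against 3 cannot give a p under 0.1.

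**Figure D2:**
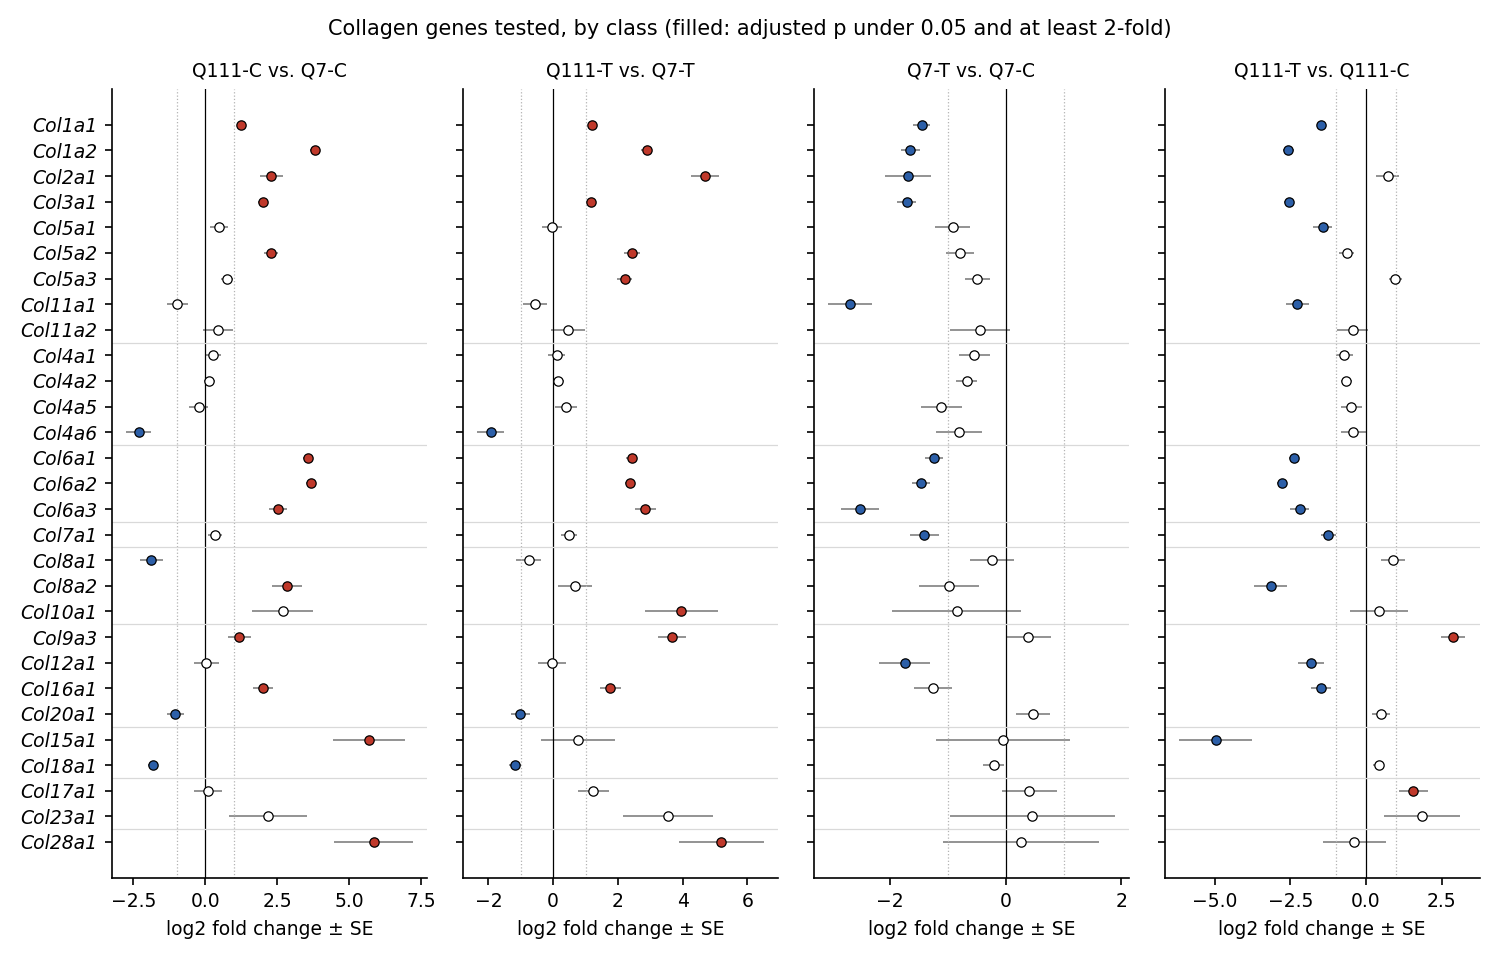
Each point is the log2 fold change of 1 tested collagen gene, with its standard error, in the comparison named above the panel. Filled points passed both thresholds (red upward, blue downward), dotted lines mark a 2-fold change, and grey lines separate classes. All 3 collagen VI genes are filled in all 4 panels, upward between the lines and downward after treatment, and the collagen IV genes other than Col4a6 are open throughout.

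Collagen VI is a filament of 3 chains, and all 3 chain genes in the table were upregulated in STHdhQ111 cells and downregulated by IFNγ/LPS in both lines. Col6a1 (ENSMUSG00000001119, chr10:76708792-76726168) and Col6a2 (ENSMUSG00000020241, chr10:76595762-76623630) lie on the minus strand of chromosome 10 of GRCm38, 85.2 kb apart. Col6a3 (ENSMUSG00000048126, chr1:90765923-90843971), the longest of the chains, lies on chromosome 1. Col6a1 had 80.9, 137 and 131 TPM in Q7-C, 48.4, 34.4 and 44.8 in Q7-T, 1571, 1771 and 1721 in Q111-C and 346, 223 and 350.0 in Q111-T. The 4 groups did not overlap, and even the treated Q111 libraries lay above the untreated Q7 libraries. Its log2 fold change was 3.57 ± 0.17 (SE, adjusted p = 1.44e-07, edgeR) in Q111-C vs. Q7-C and 2.42 ± 0.16 (adjusted p = 1.24e-06) in Q111-T vs. Q7-T. With treatment it was -1.24 ± 0.16 in STHdhQ7 cells (adjusted p = 0.000457) and -2.38 ± 0.16 in STHdhQ111 cells (adjusted p = 1.74e-06).

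Col6a2 had 31.4, 46.0 and 47.1 TPM in Q7-C, 15.0, 10.2 and 14.3 in Q7-T, 611, 691 and 677 in Q111-C and 103, 62.2 and 109.5 in Q111-T. The order of the groups was that of Col6a1, again without overlap. The log2 fold changes of Col6a2 were 3.69 and 2.38 between the lines and -1.46 and -2.77 with treatment (edgeR, adjusted p between 1.26e-07 and 0.000118). For Col6a3 the libraries held 3.30, 9.71 and 10.7 TPM in Q7-C, 1.62, 0.698 and 1.27 in Q7-T, 45, 59.4 and 57.7 in Q111-C and 13.1, 6.36 and 14.3 in Q111-T. Its log2 fold changes were 2.53 and 2.85 between the lines and -2.51 and -2.19 with treatment (edgeR, highest adjusted p = 0.000526). Q7-C replicate 1 and Q7-T replicate 2, the libraries low in long transcripts, held the lowest Col6a3 level of their groups.

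The fall of Col6a1 and Col6a2 was steeper in STHdhQ111 cells. The interaction was -1.14 ± 0.22 (log2, adjusted p = 0.0112, edgeR) for Col6a1 and -1.31 ± 0.22 (adjusted p = 0.00536) for Col6a2. For Col6a3 it was 0.32 ± 0.44 (adjusted p = 0.74). Without Q7-C replicate 1 and Q7-T replicate 2 the value of Col6a1 was -0.92, under 2-fold (adjusted p = 0.00736), and that of Col6a2 was -1.17 (adjusted p = 0.0047). With limma on log2(TPM + 0.5) the adjusted p was 0.124 for Col6a1 (it ran from 1.08e-05 to 0.167 over all alternatives) and 0.0692 for Col6a2 (2.63e-07 to 0.106 over all alternatives).

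The promoters of these neighbours are shown because these neighbouring genes passed the tests in the same direction in all 5 comparisons, the interaction included. They are RefSeq sequences on GRCm38.p6, from 250 bases before to 50 after the start, written 5′ to 3′ on the gene's strand. Col6a1 is at chr10:76725995-76726294 and Col6a2 at chr10:76623355-76623654, both on the minus strand, and RefSeq lists 2 starts for Col6a2, of which the downstream one is shown. Capitals mark matches, on either strand, to GGGCGG, the GC box.
Col6a1: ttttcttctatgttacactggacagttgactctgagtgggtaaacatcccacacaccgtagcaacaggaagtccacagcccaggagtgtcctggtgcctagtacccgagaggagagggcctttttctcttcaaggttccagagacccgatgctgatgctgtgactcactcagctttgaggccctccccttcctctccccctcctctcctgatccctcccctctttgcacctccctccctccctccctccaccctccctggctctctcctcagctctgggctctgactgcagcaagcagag
Col6a2: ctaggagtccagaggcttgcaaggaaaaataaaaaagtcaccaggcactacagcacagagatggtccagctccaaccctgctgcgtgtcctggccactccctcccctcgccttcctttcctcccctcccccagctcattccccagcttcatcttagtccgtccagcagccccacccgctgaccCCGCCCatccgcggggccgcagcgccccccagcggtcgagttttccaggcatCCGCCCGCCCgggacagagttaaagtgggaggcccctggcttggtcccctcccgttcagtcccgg
The Col6a2 window holds 3 GC boxes, 2 of which overlap in 2 bases, and the Col6a1 window holds none. Neither holds the letters TATAAA (the TATA box), CCAAT, TTCNNNGAA (the GAS element bound by STAT dimers) or GAAA, a gap of 2 bases and GAAA again (the core of the interferon-stimulated response element) on either strand. Of 32851 promoters of this length, 35.7% held GGGCGG, 13.6% TATAAA, 37.4% CCAAT, 8.30% TTCNNNGAA and 3.44% the spaced GAAA pair. Of 26 promoters of 24 tested collagen genes, the shares were 65.4%, 15.4%, 38.5%, 3.85% and 0%. The letters were searched on both strands, and a match is a description of the sequence only.

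**Figure D3:**
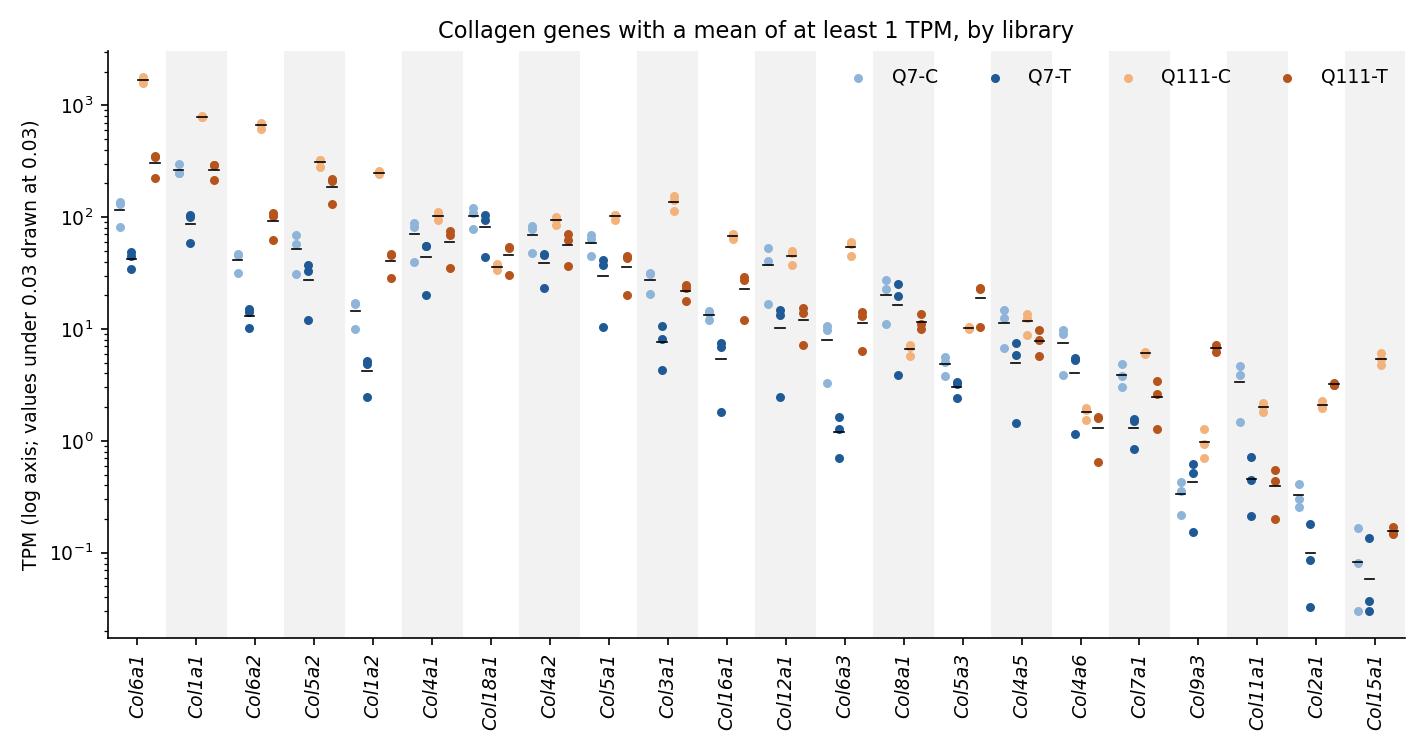
The TPM of the 22 collagen genes with a mean of at least 1 TPM is plotted on a log axis, ordered by that mean, with a point for each library and a short line at each group mean. For Col6a1, Col6a2, Col1a2 and Col3a1 the Q111-C points stand above all others, and for Col18a1, Col8a1 and Col4a6 the Q7-C points stand above the Q111-C points.

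Collagen I, the most abundant collagen of connective tissue, is built of 2 chains from Col1a1 (ENSMUSG00000001506, chr11:94936224-94953042) and 1 from Col1a2 (ENSMUSG00000029661, chr6:4504814-4541544). Col1a1 had 245, 249.7 and 300.4 TPM in Q7-C, 104, 59.2 and 99.6 in Q7-T, 779, 806 and 787 in Q111-C and 290.1, 213 and 289.7 in Q111-T. The Q111-C libraries were highest, Q7-T libraries were lowest, and the Q7-C and Q111-T ranges overlapped. Between the lines Col1a1 had log2 fold changes of 1.25 ± 0.14 (SE, adjusted p = 5.33e-05, edgeR) and 1.21 ± 0.14 (adjusted p = 5.28e-05), and with treatment -1.45 ± 0.14 (adjusted p = 4.3e-05) and -1.49 ± 0.14 (adjusted p = 1.71e-05). Its interaction was -0.04 ± 0.19 (adjusted p = 0.944).

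For Col1a2 the libraries held 10.0, 16.6 and 17.2 TPM in Q7-C, 5.16, 2.44 and 4.90 in Q7-T, 241, 258 and 251 in Q111-C and 45.4, 28.5 and 46.5 in Q111-T. Its Q111-T libraries stayed above its Q7-C libraries. Between the lines its log2 fold changes were 3.81 ± 0.18 (adjusted p = 1.26e-07, edgeR) and 2.90 ± 0.17 (adjusted p = 5.3e-07). With treatment they were -1.64 ± 0.16 in STHdhQ7 and -2.56 ± 0.17 in STHdhQ111 cells. The interaction of -0.91 ± 0.23 had an adjusted p of 0.0371 but was under 2-fold, and without Q7-T replicate 2 it was -1.02 (adjusted p = 0.011, 0.00105 to 0.417 over all alternatives). Taken per length, Col1a1 exceeded Col1a2 by 24.5, 15.0 and 17.5 times in the Q7-C libraries and by 3.23, 3.12 and 3.13 times in Q111-C. The ratio was 20.1, 24.2 and 20.3 in Q7-T and 6.39, 7.47 and 6.23 in Q111-T.

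Collagen III co-assembles with collagen I in soft tissues and is a homotrimer of the product of Col3a1 (ENSMUSG00000026043, chr1:45311538-45349706). Its gene lies 24.6 kb from Col5a2 (ENSMUSG00000026042, chr1:45374321-45503282) on chromosome 1, in opposite orientation. Col3a1 had 20.4, 31.0 and 31.5 TPM in Q7-C, 10.6, 4.33 and 8.07 in Q7-T, 113, 153 and 143 in Q111-C and 24.6, 17.8 and 23.4 in Q111-T. The Q111-C libraries stood clear of the other 9. Its log2 fold changes were 2.00 ± 0.17 (adjusted p = 6.49e-06, edgeR) between the control groups and 1.17 ± 0.16 between the treated groups of the lines, and with treatment -1.71 ± 0.17 in STHdhQ7 and -2.54 ± 0.17 in STHdhQ111 cells (highest adjusted p of the 4 = 0.00022). The interaction was -0.83 ± 0.23 with an adjusted p of 0.0576.

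The promoters of Col1a2 (chr6:4505368-4505667, plus strand) and Col3a1 (chr1:45311288-45311587, plus strand) are shown, since both genes were downregulated in either line and of the fibril-forming genes with a RefSeq entry they had the largest decreases in STHdhQ111 cells. Capitals mark GGGCGG and CCAAT on either strand in Col1a2 and TATAAA in Col3a1.
Col1a2: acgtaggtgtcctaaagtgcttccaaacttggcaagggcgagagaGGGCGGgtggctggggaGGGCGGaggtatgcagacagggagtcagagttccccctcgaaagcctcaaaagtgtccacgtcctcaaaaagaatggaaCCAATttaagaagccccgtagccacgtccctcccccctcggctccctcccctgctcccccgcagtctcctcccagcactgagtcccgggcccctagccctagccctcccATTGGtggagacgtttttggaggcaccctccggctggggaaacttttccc
Col3a1: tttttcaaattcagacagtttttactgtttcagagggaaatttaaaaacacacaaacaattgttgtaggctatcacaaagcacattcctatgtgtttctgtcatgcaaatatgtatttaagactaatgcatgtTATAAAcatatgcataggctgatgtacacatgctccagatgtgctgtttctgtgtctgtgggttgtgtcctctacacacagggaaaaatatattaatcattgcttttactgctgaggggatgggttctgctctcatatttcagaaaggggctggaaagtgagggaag
The Col1a2 window holds GGGCGG from positions -205 and -188 and CCAAT from position -109, counted from 0 at the start, and the reverse complement of CCAAT begins at the start itself. The RefSeq start of Col1a2 lies inside the gene as the Ensembl coordinates above give it. In Col3a1 the TATAAA begins at -117, counted from the annotated start. Neither window holds TTCNNNGAA or the spaced GAAA pair.

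Collagen V regulates the width of collagen I fibrils, and its 3 chain genes differed in their behaviour. Col5a2 had 30.9, 57.3 and 68.9 TPM in Q7-C, 37.0, 12.1 and 33.1 in Q7-T, 278, 324 and 327 in Q111-C and 211, 132 and 219 in Q111-T. All 6 Q111 libraries lay above the 6 Q7 libraries. It was upregulated in Q111-C vs. Q7-C (2.29 ± 0.25, adjusted p = 5.09e-05, edgeR) and in Q111-T vs. Q7-T (2.44 ± 0.25, adjusted p = 2.65e-05), and its values with treatment were -0.80 (adjusted p = 0.0994) and -0.64 (adjusted p = 0.0919). Col5a1 (ENSMUSG00000026837, chr2:27886425-28039514) had 44.5, 63.3 and 69.6 TPM in Q7-C, 41.3, 10.4 and 37.0 in Q7-T, 94.2, 105 and 104 in Q111-C and 44.6, 20.0 and 43.0 in Q111-T. It was downregulated in Q111-T vs. Q111-C (-1.43 ± 0.31, adjusted p = 0.00638, 4.93e-05 to 0.0553 over all alternatives) and passed neither comparison between the lines (0.48 and -0.04).

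The third collagen V gene, Col5a3 (ENSMUSG00000004098, chr9:20770050-20815067), had 3.79, 5.66 and 5.11 TPM in Q7-C, 3.37, 2.42 and 3.24 in Q7-T, 10.1, 10.3 and 9.99 in Q111-C and 22.9, 10.4 and 23.2 in Q111-T. It was upregulated in Q111-T vs. Q7-T (2.21 ± 0.22, adjusted p = 2.15e-05, edgeR), where Q111-T replicate 2 held less than the other Q111-T libraries. Between the control groups and in the STHdhQ111 response the values were 0.76 (adjusted p = 0.0236) and 0.96 (adjusted p = 0.00829), both under 2-fold, and without Q111-T replicate 2 the latter was 1.17 (adjusted p = 0.000295, 0.000295 to 0.116 over all alternatives). Its interaction passed both thresholds (1.45 ± 0.30, adjusted p = 0.016), but not when Q7-C replicate 2, Q111-C replicate 2 or 3, or Q111-T replicate 1 or 3 was left out, nor with limma (adjusted p 0.00035 to 0.0985 over all alternatives). The ratio of Col5a2 to Col5a1 was 0.695, 0.905 and 0.989 in Q7-C, 2.96, 3.07 and 3.13 in Q111-C and 4.73, 6.62 and 5.09 in Q111-T.

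Collagens II and XI are best known from cartilage. Col2a1 (ENSMUSG00000022483, chr15:97975602-98004695) had 0.415, 0.259 and 0.303 TPM in Q7-C, 0.182, 0.0326 and 0.0863 in Q7-T, 2.27, 1.97 and 2.05 in Q111-C and 3.16, 3.16 and 3.27 in Q111-T. All 6 Q111 libraries lay above the 6 Q7 libraries, with log2 fold changes of 2.30 ± 0.39 (adjusted p = 0.00123, edgeR) and 4.70 ± 0.44 (adjusted p = 1.39e-05). It was downregulated in Q7-T vs. Q7-C (-1.68 ± 0.40, adjusted p = 0.0321), a call that 10 of the 12 single libraries ended when left out, with a value of -1.27 without Q7-C replicate 1 (adjusted p 0.000414 to 0.348 over all alternatives). The exceptions were Q7-C replicate 2 and Q7-T replicate 1. In Q111-T vs. Q111-C it stood at 0.71 (adjusted p = 0.239), and the interaction was 2.40 ± 0.55 (adjusted p = 0.0261). That call was lost when Q7-T replicate 3 or any single Q111 library was left out, and limma on log2(TPM + 0.5) gave 0.97 (adjusted p 0.000207 to 0.0816 over all alternatives).

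Col11a1 (ENSMUSG00000027966, chr3:114030540-114220718) had 1.47, 3.86 and 4.66 TPM in Q7-C, 0.712, 0.212 and 0.449 in Q7-T, 1.80, 2.18 and 2.04 in Q111-C and 0.436, 0.201 and 0.546 in Q111-T. All treated libraries lay below the control libraries of their line. It was downregulated in both lines, with log2 fold changes of -2.69 ± 0.38 in Q7-T vs. Q7-C (adjusted p = 0.000976, edgeR) and -2.27 ± 0.38 in Q111-T vs. Q111-C (adjusted p = 0.00126). In Q111-C vs. Q7-C its value of -0.97 had an adjusted p of 0.0764, and without Q7-C replicate 1 it was -1.25 (adjusted p = 0.0239, 0.00608 to 0.447 over all alternatives). Of the remaining fibril-forming genes, Col11a2 lay between 0.137 and 0.658 TPM and passed no test. Over the class, 5 of 9 tested genes were upregulated between the control groups and 6 between the treated groups of the lines, against 7.62% and 13.3% of all genes tested. After treatment 5 of the 9 were downregulated in each line, against 1.11% of all genes in STHdhQ7 and 2.96% in STHdhQ111 cells.

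Collagen IV, the basement membrane collagen, had 1 of 4 tested genes called in each comparison between the lines (25%, against 15.2% and 24.5% of all genes tested). Col4a1 (ENSMUSG00000031502, chr8:11198423-11312826) and Col4a2 (ENSMUSG00000031503, chr8:11312805-11449287) stand head to head on chromosome 8, and their annotated 5′ ends overlap. Col4a1 had 39.6, 82.4 and 88.7 TPM in Q7-C, 55.1, 20.1 and 55.6 in Q7-T, 94.4, 110.4 and 103 in Q111-C and 75.2, 35.3 and 68.7 in Q111-T. Col4a2 had 47.3, 77.5 and 82.9 TPM in Q7-C, 46.5, 23.5 and 46.2 in Q7-T, 85.1, 99.2 and 96.3 in Q111-C and 70.4, 36.5 and 62.3 in Q111-T. Q7-C replicate 1, Q7-T replicate 2 and Q111-T replicate 2 held the lowest levels of their groups for both. Between the control groups the log2 fold change was 0.28 ± 0.26 (adjusted p = 0.517, edgeR) for Col4a1 and 0.15 ± 0.18 (adjusted p = 0.631) for Col4a2. With treatment Col4a1 had -0.54 and -0.71, and Col4a2 had -0.67 and -0.65, of which the last had an adjusted p of 0.0259 but was under 2-fold. The ratio of Col4a1 to Col4a2 lay between 0.837 and 1.20 in the 12 libraries.

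The shared promoter is shown because the 300-base windows of the pair overlap. The Col4a2 window (chr8:11312555-11312854, plus strand) has in capitals its last 78 bases, which are also, on the other strand, the last bases of the Col4a1 window.
Col4a2: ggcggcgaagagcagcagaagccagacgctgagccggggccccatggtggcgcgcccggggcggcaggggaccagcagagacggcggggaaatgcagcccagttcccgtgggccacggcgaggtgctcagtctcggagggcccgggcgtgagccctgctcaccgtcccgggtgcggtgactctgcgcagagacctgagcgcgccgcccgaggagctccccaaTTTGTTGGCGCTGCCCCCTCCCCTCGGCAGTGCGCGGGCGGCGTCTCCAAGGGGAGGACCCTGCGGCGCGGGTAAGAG
The shared stretch holds both annotated starts, and the window holds CCAAT from position -32 and GGGCGG on either strand 3 times. The other pair of neighbours, Col4a5 (ENSMUSG00000031274, chrX:141475385-141689234) and Col4a6 (ENSMUSG00000031273, chrX:141165403-141474076) on chromosome X, starts 1.31 kb apart in opposite directions.

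Col4a5 had 6.72, 12.5 and 14.8 TPM in Q7-C, 7.45, 1.43 and 5.89 in Q7-T, 8.91, 13.6 and 12.5 in Q111-C and 9.80, 5.75 and 7.93 in Q111-T. It passed no test with edgeR, while DESeq2 called it in Q7-T vs. Q7-C (-1.12, adjusted p = 0.0247, 0.0199 to 0.408 over all alternatives). Col4a6 had 3.85, 8.99 and 9.78 TPM in Q7-C, 5.53, 1.14 and 5.33 in Q7-T, 1.55, 1.90 and 1.96 in Q111-C and 1.64, 0.643 and 1.59 in Q111-T. It was downregulated in Q111-C vs. Q7-C (-2.32 ± 0.42, adjusted p = 0.0018, edgeR) and in Q111-T vs. Q7-T (-1.93 ± 0.42, adjusted p = 0.00385), where Q7-T replicate 2 lay within the Q111-T range and limma on log2(TPM + 0.5) gave -1.17 (adjusted p 2.27e-05 to 0.0991 over all alternatives). The neighbours thus differed: Col4a5 over Col4a6 was 1.74, 1.40 and 1.51 in Q7-C and 5.75, 7.19 and 6.35 in Q111-C. Col4a3 and Col4a4, the remaining pair, were under the minimum for testing, and Col4a4 ranged up to 0.701 TPM, in Q7-C, against at most 0.147 TPM in the Q111 libraries.

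**Figure D4:**
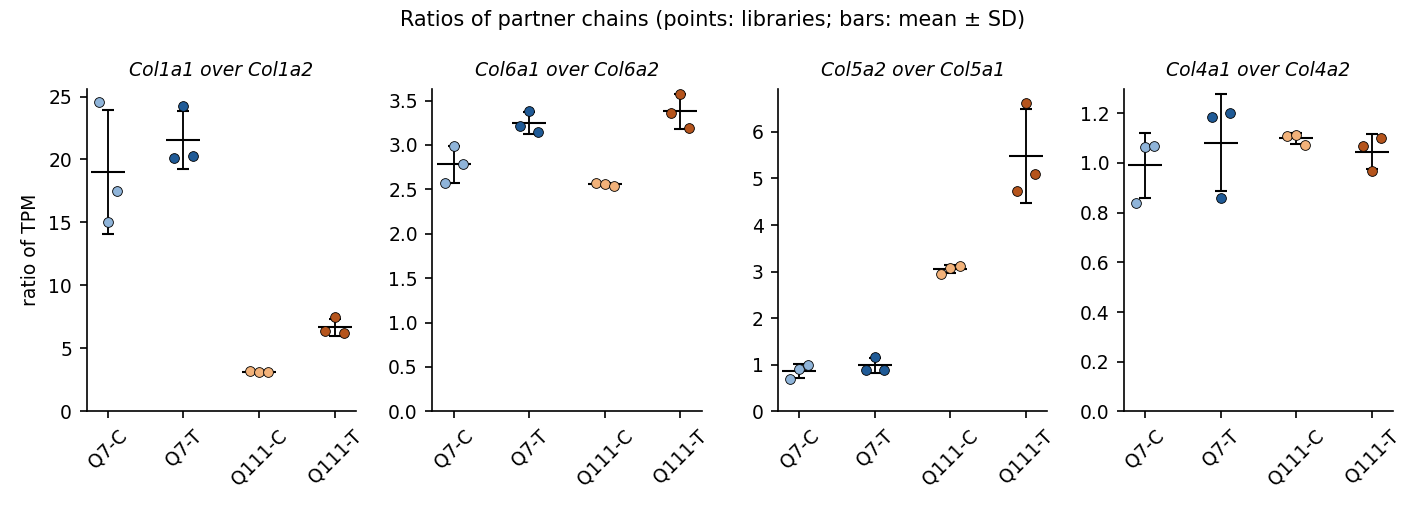
The TPM ratio of partner chains is plotted for each library as a point, with the mean and SD of each group as a bar. Col1a1 over Col1a2 lies between 15.0 and 24.5 in the Q7 libraries and between 3.12 and 7.47 in the Q111 libraries, while Col4a1 over Col4a2 stays near 1 in every group.

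Collagens XV and XVIII are proteoglycans of basement membrane zones, and the pair differed in opposite directions between the control groups of the lines. Col18a1 (ENSMUSG00000001435, chr10:77052178-77166548), on chromosome 10 with the collagen VI pair, had 78.8, 108 and 121 TPM in Q7-C, 93.4, 44.2 and 105 in Q7-T, 33.4, 38.2 and 36.2 in Q111-C and 53.0, 30.5 and 53.6 in Q111-T. The Q111-C libraries lay below all Q7-C libraries. Col18a1 was downregulated in Q111-C vs. Q7-C (-1.81 ± 0.19, adjusted p = 3.04e-05, edgeR) and in Q111-T vs. Q7-T (-1.19 ± 0.18, adjusted p = 0.00044), where limma on log2(TPM + 0.5) gave -0.77 (adjusted p 5.26e-09 to 0.108 over all alternatives). With treatment its values were -0.20 and 0.43, neither past the thresholds. Col15a1 (ENSMUSG00000028339, chr4:47208161-47313167) had 0.0811, 0.165 and 0 TPM in Q7-C, 0, 0.136 and 0.0371 in Q7-T, 4.78, 6.10 and 5.38 in Q111-C and 0.170, 0.153 and 0.148 in Q111-T. Its Q111-C libraries stood apart from the other 9, at 5.42 ± 0.661 TPM (SD, n = 3). It was upregulated in Q111-C vs. Q7-C (5.70 ± 1.26, adjusted p = 0.0064) and downregulated in Q111-T vs. Q111-C (-4.97 ± 1.21, adjusted p = 0.0136), and in Q111-T vs. Q7-T it had 0.78 (adjusted p = 0.615). The Q111-C vs. Q7-C value was 6.55 without Q7-C replicate 2. Leaving out any Q111-T library ended the Q111-T vs. Q111-C call (adjusted p 2.07e-07 to 0.0561 over all alternatives). Its interaction of -4.92 ± 1.63 (adjusted p = 0.11) passed without Q7-T replicate 1 (adjusted p = 0.0434) and with limma (2.26e-05 to 0.268 over all alternatives).

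Collagens VIII and X form hexagonal lattices, collagen VIII in vessel walls and cornea and collagen X in growth cartilage. Col8a1 (ENSMUSG00000068196, chr16:57624258-57754737) had 11, 22.6 and 27.3 TPM in Q7-C, 25.1, 3.85 and 19.9 in Q7-T, 5.73, 6.88 and 7.24 in Q111-C and 11, 9.96 and 13.6 in Q111-T. Q7-T replicate 2 was far below the other Q7-T libraries. Col8a1 was downregulated in Q111-C vs. Q7-C (-1.88 ± 0.40, adjusted p = 0.00479, edgeR), a call not made by limma (adjusted p 1.59e-06 to 0.108 over all alternatives), and in Q111-T vs. Q7-T it had -0.75 (adjusted p = 0.146) with Q7-T replicate 2 and -1.14 (adjusted p = 0.00169, 7.77e-05 to 0.888 over all alternatives) without it. Its partner Col8a2 (ENSMUSG00000056174, chr4:126286793-126314330) had 0.0920, 0.160 and 0.279 TPM in Q7-C, 0.0591, 0.0228 and 0.157 in Q7-T, 1.30, 1.79 and 1.54 in Q111-C and 0.213, 0.142 and 0.114 in Q111-T. It was upregulated in Q111-C vs. Q7-C (2.84 ± 0.53, adjusted p = 0.00212) and downregulated in Q111-T vs. Q111-C (-3.15 ± 0.54, adjusted p = 0.00153). Without Q7-T replicate 3 its value in Q111-T vs. Q7-T went from 0.67 to 1.51 (adjusted p = 0.0426, 0.0426 to 0.643 over all alternatives), and without Q7-T replicate 2 its interaction went from -2.17 (adjusted p = 0.116) to -2.50 (adjusted p = 0.0396, 0.00533 to 0.29 over all alternatives).

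Col10a1 (ENSMUSG00000039462, chr10:34389981-34397085) lies within Nt5dc1, a gene on the opposite strand, and had 0.0495, 0.189 and 0 TPM in Q7-C, 0.0984, 0 and 0.0299 in Q7-T, 0.720, 0.596 and 0.566 in Q111-C and 0.835, 0.991 and 0.514 in Q111-T. No Q7-T library held more than 12 estimated counts of it, taken as 3 read pairs, so Q111-T was at least 4.35-fold higher (adjusted p = 0.0169, edgeR). Without Q7-T replicate 3 the adjusted p was 0.0537 (0.000465 to 0.0537 over all alternatives). Whether counting used the strand is not stated, so reads of Col10a1 and Nt5dc1 may not be told apart. In Q111-C vs. Q7-C its value of 2.69 (adjusted p = 0.0939) became 4.18 (adjusted p = 0.0459) without Q7-C replicate 2 and 2.70 (adjusted p = 0.0461, 0.00245 to 0.201 over all alternatives) without Q7-T replicate 2, and was also called with DESeq2, with counts divided by 4 and with limma on log2(TPM + 0.1). Col28a1 (ENSMUSG00000068794, chr6:7997808-8192617), whose product resembles collagen VI in its domains, had 0.0625, 0 and 0 TPM in Q7-C, 0, 0 and 0.0718 in Q7-T, 1.57, 1.63 and 1.99 in Q111-C and 1.45, 0.780 and 1.53 in Q111-T. No Q7-C library exceeded 12 estimated counts, and Q111-C was at least 17.7-fold higher (adjusted p = 0.00863). It was also upregulated in Q111-T vs. Q7-T (adjusted p = 0.00909).

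The fibril-associated collagens sit on the surface of fibrils. Col12a1 (ENSMUSG00000032332, chr9:79598991-79718720), known from tendon and other load-bearing tissue, had 16.9, 40.5 and 53.4 TPM in Q7-C, 14.9, 2.48 and 13.5 in Q7-T, 37.5, 49.6 and 47.6 in Q111-C and 13.8, 7.19 and 15.5 in Q111-T. It was downregulated in Q7-T vs. Q7-C (-1.74 ± 0.44, adjusted p = 0.0427, edgeR) and in Q111-T vs. Q111-C (-1.81 ± 0.44, adjusted p = 0.0134) and had 0.03 and -0.04 between the lines. With 11511 bases its transcript was the longest of the tested collagens, and Q7-C replicate 1 and Q7-T replicate 2 were its lowest libraries of their groups. The STHdhQ7 call was lost when any single library other than Q7-C replicate 1 and Q7-T replicate 2 was left out and with limma (adjusted p 0.00117 to 0.249 over all alternatives), and the STHdhQ111 call without Q111-T replicate 2 (adjusted p 7.54e-05 to 0.0742 over all alternatives). Col16a1 (ENSMUSG00000040690, chr4:130047840-130099283) had 11.9, 14.6 and 13.8 TPM in Q7-C, 7.56, 1.80 and 6.87 in Q7-T, 63.4, 71.1 and 67.8 in Q111-C and 29.2, 12 and 27.7 in Q111-T. It was upregulated in Q111-C vs. Q7-C (2.00 ± 0.33, adjusted p = 0.00105) and Q111-T vs. Q7-T (1.77 ± 0.33, adjusted p = 0.00165) and downregulated in Q111-T vs. Q111-C (-1.49 ± 0.33, adjusted p = 0.0079). In Q7-T vs. Q7-C its value was -1.25 (adjusted p = 0.0507), and -1.26 (adjusted p = 0.0291, 0.00369 to 0.212 over all alternatives) without Q111-T replicate 2.

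Col9a3 (ENSMUSG00000027570, chr2:180597790-180622189), a chain of the collagen that covers cartilage fibrils, went against the general direction. It overlaps Tcfl5 on the opposite strand, with the same limit on telling reads apart, and had 0.357, 0.431 and 0.220 TPM in Q7-C, 0.617, 0.152 and 0.518 in Q7-T, 1.27, 0.943 and 0.707 in Q111-C and 7.14, 6.29 and 6.91 in Q111-T. The Q111-T libraries stood above the other 9. Col9a3 was upregulated in Q111-T vs. Q111-C (2.88 ± 0.40, adjusted p = 0.000375, edgeR) and Q111-T vs. Q7-T (3.67 ± 0.42, adjusted p = 5.22e-05), and its interaction was 2.48 ± 0.55 (adjusted p = 0.0216). The interaction was lost when Q7-C replicate 2, Q111-C replicate 2 or 3, or any Q111-T library was left out (adjusted p 0.000157 to 0.0689 over all alternatives). Between the control groups it had 1.19 ± 0.39 (adjusted p = 0.0478), and 8 of the 12 single libraries ended that call, with a value of 0.93 without Q7-C replicate 3 (adjusted p 0.00871 to 0.159 over all alternatives). The 4 that did not were Q7-C replicate 1, Q7-T replicates 1 and 2 and Q111-C replicate 3. Col20a1 (ENSMUSG00000016356, chr2:180986535-181017714), on the same chromosome, had 0.709, 0.759 and 0.713 TPM in Q7-C, 1.05, 0.702 and 0.940 in Q7-T, 0.303, 0.440 and 0.594 in Q111-C and 0.575, 0.567 and 0.616 in Q111-T. It was called at the edge of the 2-fold threshold in Q111-C vs. Q7-C (-1.04, adjusted p = 0.0262) and Q111-T vs. Q7-T (-1.01, adjusted p = 0.0192). The former call was lost without Q7-C replicate 1 or 2 or Q111-C replicate 1 or 2, and the latter without any of 8 single libraries, with adjusted p 0.00188 to 0.178 over all alternatives for the former and 0.00113 to 0.142 over all alternatives for the latter. Only Q7-C replicate 1, Q7-T replicates 1 and 3 and Q111-T replicate 2 could be left out with the latter call kept. Col20a1 also overlaps 9230112E08Rik on the same strand, so reads of these genes may not be told apart. The spans of Col5a2, Col1a2, Col3a1, Col6a3, Col4a5 and Col7a1 likewise overlap another gene on the same strand. Those of Col18a1, Col5a1, Col12a1, Col4a1, Col4a2, Col4a5 and Col4a6 overlap a gene on the opposite strand.

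Collagen VII, the anchoring fibril of skin, is encoded by Col7a1 (ENSMUSG00000025650, chr9:108953586-108984875). It had 3.04, 3.77 and 4.84 TPM in Q7-C, 1.5, 0.842 and 1.57 in Q7-T, 6.17, 5.99 and 6.07 in Q111-C and 3.45, 1.27 and 2.62 in Q111-T. It was downregulated in Q7-T vs. Q7-C (-1.41 ± 0.25, adjusted p = 0.00512, edgeR) and Q111-T vs. Q111-C (-1.25 ± 0.25, adjusted p = 0.00412), and its values between the lines were 0.34 and 0.50 (adjusted p = 0.375 and 0.128). Among the transmembrane collagens, Col17a1 (ENSMUSG00000025064, chr19:47646344-47692094), the hemidesmosome collagen of epithelia, had 0.154, 0.126 and 0.282 TPM in Q7-C, 0.290, 0.0663 and 0.346 in Q7-T, 0.185, 0.275 and 0.281 in Q111-C and 0.591, 0.846 and 0.562 in Q111-T. It was upregulated in Q111-T vs. Q111-C (1.55 ± 0.48, adjusted p = 0.0434), and 8 of the 12 single libraries ended the call when left out, with adjusted p 0.008 to 0.16 over all alternatives. These 8 were Q7-C replicate 3, Q7-T replicate 1 and all 6 Q111 libraries. Without Q7-T replicate 3 its value in Q111-T vs. Q7-T went from 1.23 (adjusted p = 0.0605) to 1.56 (adjusted p = 0.0479, 0.0168 to 0.179 over all alternatives), and it was also called with DESeq2, with counts divided by 4 and with limma on log2(TPM + 0.1). Col23a1 reached at most 0.692 TPM and passed no test in the edgeR fit used throughout. In Q111-T vs. Q7-T it was called under 9 of 23 alternatives, among them DESeq2, limma on log2(TPM + 0.5), the replicate block and the fits without Q7-C replicate 3 or Q7-T replicate 2 (adjusted p 5.26e-05 to 0.124 over all alternatives). With limma on log2(TPM + 0.1) it was also called between the control groups and in the STHdhQ111 response, in the latter also when only the Q111 groups were fitted, and in the interaction without Q7-T replicate 2 (0.0361 to 0.968 over all alternatives).

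The other 9 collagen genes were not tested. Col27a1 ranged from 0.171 to 0.485 TPM and Col4a3 from 0.0414 to 0.428 TPM. Col22a1, Col14a1 and Col24a1 reached at most 0.316, 0.153 and 0.124 TPM and were listed at 0 in some libraries. Col25a1, Col9a2 and Col13a1 stayed at or under 0.0353 TPM. With Col4a4, described above, these are the members for which no comparison was made.

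Newly made collagen chains are hydroxylated and folded in the endoplasmic reticulum, secreted, trimmed of their propeptides, crosslinked by lysyl oxidases, and then bound by small leucine-rich proteoglycans, read by receptors and cut by metalloproteinases. A list of these genes held 72 in the table, of which 61 were tested. Between the control groups 15 were upregulated and 4 downregulated in STHdhQ111 cells, and between the treated groups 21 and 7. IFNγ/LPS upregulated 1 and downregulated 4 in STHdhQ7 cells, and 5 and 11 in STHdhQ111 cells. The interaction passed for 6, 2 upward and 4 downward. As shares of the 61 genes these counts can be read against the same 15.2%, 24.5%, 4.04%, 11.2% and 4.71% of all genes tested. Without Q7-C replicate 1 and Q7-T replicate 2 the numbers called in either direction were 21, 25, 7, 17 and 7, against 16.4%, 22.4%, 4.53%, 13.4% and 8.52% of all genes. The median log2 fold change of the list, in the same order, was 0.31, 0.27, -0.24, -0.25 and -0.11.

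Among the genes of prolyl and lysyl hydroxylation and its partners, 2 of 14 were upregulated in Q111-C vs. Q7-C and 5 in Q111-T vs. Q7-T, with 2 downregulated in the latter. Called in either direction were thus 14.3% of the 14 genes in the former and 50% in the latter, against 15.2% and 24.5% of all genes tested. Of the 11 genes of chaperones, folding and export, 1 was upregulated in the former and 3 in the latter (9.09% and 27.3%), with 0 downregulated in either. P4ha2, a catalytic subunit of the prolyl hydroxylase that stabilises the collagen helix, had 4.77, 5.60 and 5.97 TPM in Q7-C, 5.20, 2.13 and 4.32 in Q7-T, 36.2, 38.4 and 39.7 in Q111-C and 61.3, 43.9 and 60.3 in Q111-T, with log2 fold changes of 2.48 and 3.47 between the lines (adjusted p = 8.82e-07 and 1.88e-07, edgeR). P4ha1, the other main subunit, had 0.02 between the control groups and 1.05 between the treated groups (adjusted p = 0.000237), the latter 0.91 without Q7-T replicate 2. Plod2, the lysyl hydroxylase of the telopeptides, had 10.7, 20.9 and 22.2 TPM in Q7-C, 16.6, 3.61 and 12.9 in Q7-T, 18.8, 24.0 and 22 in Q111-C and 77.0, 71.2 and 85.1 in Q111-T. It was upregulated in Q111-T vs. Q111-C (1.95 ± 0.30, adjusted p = 0.000815), while its value in Q7-T vs. Q7-C was -0.60, and the interaction was 2.55 ± 0.42 (adjusted p = 0.0051), or 0.0553 with limma on log2(TPM + 0.1) (3.14e-07 to 0.0553 over all alternatives). Serpinh1, the collagen chaperone Hsp47, lay at 393 ± 72.1 TPM in untreated and 276 ± 112 TPM in treated STHdhQ7 cells, and at 535 ± 36.1 TPM in untreated and 257 ± 39.9 TPM in treated STHdhQ111 cells (SD, n = 3). It passed no test at 2-fold, with -0.96 in Q111-T vs. Q111-C (adjusted p = 0.00107), and -1.02 and -1.06 without replicate 1 of Q111-C or Q111-T.

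Of the propeptide-removing enzymes, Adamts14 had 0.283, 0.560 and 0.478 TPM in Q7-C, 0.281, 0.225 and 0.370 in Q7-T, 10.9, 11.4 and 11.9 in Q111-C and 15.8, 7.92 and 12.8 in Q111-T and Adamts2 0.764, 1.06 and 1.01 TPM in Q7-C, 0.739, 0.599 and 0.726 in Q7-T, 0.299, 0.299 and 0.368 in Q111-C and 0.409, 0.410 and 0.430 in Q111-T. These procollagen N-proteinases were thus called in opposite directions in Q111-C vs. Q7-C, at 4.40 (adjusted p = 3.8e-07, edgeR) and -1.85 (adjusted p = 0.000149). With limma on log2(TPM + 0.5) and log2(TPM + 1) the Adamts2 value was under 2-fold, at -0.81 and -0.55. Pcolce2, an enhancer of C-propeptide removal, was downregulated in Q111-T vs. Q111-C (-1.76 ± 0.16, adjusted p = 1.34e-05), with -0.27 in Q7-T vs. Q7-C and an interaction of -1.49 ± 0.22 (adjusted p = 0.00259). Lox, the lysyl oxidase that starts crosslinking, had 23.4, 42.5 and 56.1 TPM in Q7-C, 43.7, 13.8 and 34.0 in Q7-T, 194, 223 and 261 in Q111-C and 276, 281 and 335 in Q111-T. All Q111 libraries lay above all Q7 libraries, with log2 fold changes of 2.21 and 2.98 (adjusted p = 7.72e-05 and 8.71e-06), and with treatment it had -0.27 and 0.50, neither past the thresholds.

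Of the fibril partners, 8 of 12 genes were called in each comparison between the lines, or 66.7% against 15.2% and 24.5% of all genes tested (6 upward and 2 downward between the control groups, 5 and 3 between the treated groups). Biglycan (Bgn) had 9.14, 10.1 and 6.60 TPM in Q7-C, 10.9, 5.77 and 8.45 in Q7-T, 445, 460.2 and 464 in Q111-C and 304, 302 and 315 in Q111-T, and decorin (Dcn) had 1.27, 2.61 and 2.20 TPM in Q7-C, 16.7, 5.90 and 15.9 in Q7-T, 11.4, 14.9 and 18.4 in Q111-C and 52.1, 57.9 and 55.2 in Q111-T. Both were upregulated in Q111-C vs. Q7-C (5.37 and 2.60, adjusted p = 1.26e-07 and 2.65e-05, edgeR), and Dcn was the only gene of the list upregulated by IFNγ/LPS in Q7-T vs. Q7-C (2.79 ± 0.26, adjusted p = 3.58e-05), with 2.00 ± 0.25 in Q111-T vs. Q111-C (adjusted p = 0.000182). Asporin (Aspn) had 1.62, 1.07 and 1.06 TPM in Q7-C, 0.935, 1.20 and 0.390 in Q7-T, 186, 241 and 237 in Q111-C and 2.77, 3.80 and 3.93 in Q111-T. Its Q111-C libraries stood far above the other 9, with 7.08 in Q111-C vs. Q7-C (adjusted p = 5.64e-06), -5.86 in Q111-T vs. Q111-C (adjusted p = 1.62e-05) and an interaction of -5.54 (adjusted p = 0.000985), which was -4.83 without Q7-T replicate 2. Prelp and fibromodulin (Fmod) were downregulated in STHdhQ111 cells (-3.95 and -3.14 in Q111-C vs. Q7-C) and by treatment in both lines (-1.02 and -1.78 for Prelp, -2.74 and -2.71 for Fmod). The Q7-T vs. Q7-C value of Prelp was -0.97 without Q7-C replicate 2 and -0.94 without Q7-T replicate 1, under 2-fold.

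The 2 discoidin receptors, which bind collagen directly, differed in opposite directions between the control groups of the lines. Ddr2, a receptor for fibrillar collagen, had 0.596, 1.48 and 1.59 TPM in Q7-C, 1.59, 0.756 and 1.17 in Q7-T, 41.4, 44.4 and 50.2 in Q111-C and 49.0, 25.7 and 53.4 in Q111-T, and its log2 fold change was 4.95 ± 0.30 in Q111-C vs. Q7-C (adjusted p = 6.96e-07, edgeR) and 4.80 ± 0.30 in Q111-T vs. Q7-T. With treatment it had 0.14 and -0.01. Ddr1 had 57.8, 72.6 and 73.0 TPM in Q7-C, 78.7, 22.8 and 80.8 in Q7-T, 29.0, 31.4 and 26.8 in Q111-C and 73.8, 49.5 and 64.2 in Q111-T and was downregulated in Q111-C vs. Q7-C (-1.54 ± 0.25, adjusted p = 0.000793) and upregulated in Q111-T vs. Q111-C (1.19 ± 0.24, adjusted p = 0.00501). Both Ddr1 calls were lost with limma at each of its pseudocounts (adjusted p 3.53e-08 to 0.0647 over all alternatives for the former and 1.11e-05 to 0.116 over all alternatives for the latter). In Q111-T vs. Q7-T Ddr1 had -0.26 (adjusted p = 0.414), a value that changed sign under 3 of 24 alternatives. Itga11, an integrin chain for fibrillar collagen, was downregulated in Q7-T vs. Q7-C (-2.29, adjusted p = 0.00056) and Q111-T vs. Q111-C (-1.44, adjusted p = 0.00466). The latter was under 2-fold with limma on log2(TPM + 0.5) and log2(TPM + 1), at -0.98 and -0.72. Of the degrading enzymes, the gelatinase Mmp2 was upregulated in Q111-C vs. Q7-C (2.02, adjusted p = 9.32e-07) and Q111-T vs. Q7-T (2.12), and the collagenase Mmp13 in Q111-T vs. Q111-C (5.38 ± 1.15, adjusted p = 0.00653), at 4.10, 2.72 and 4.77 TPM in the Q111-T libraries and at most 0.168 TPM in Q111-C. That value was 6.01 without Q111-C replicate 2.

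**Figure D5:**
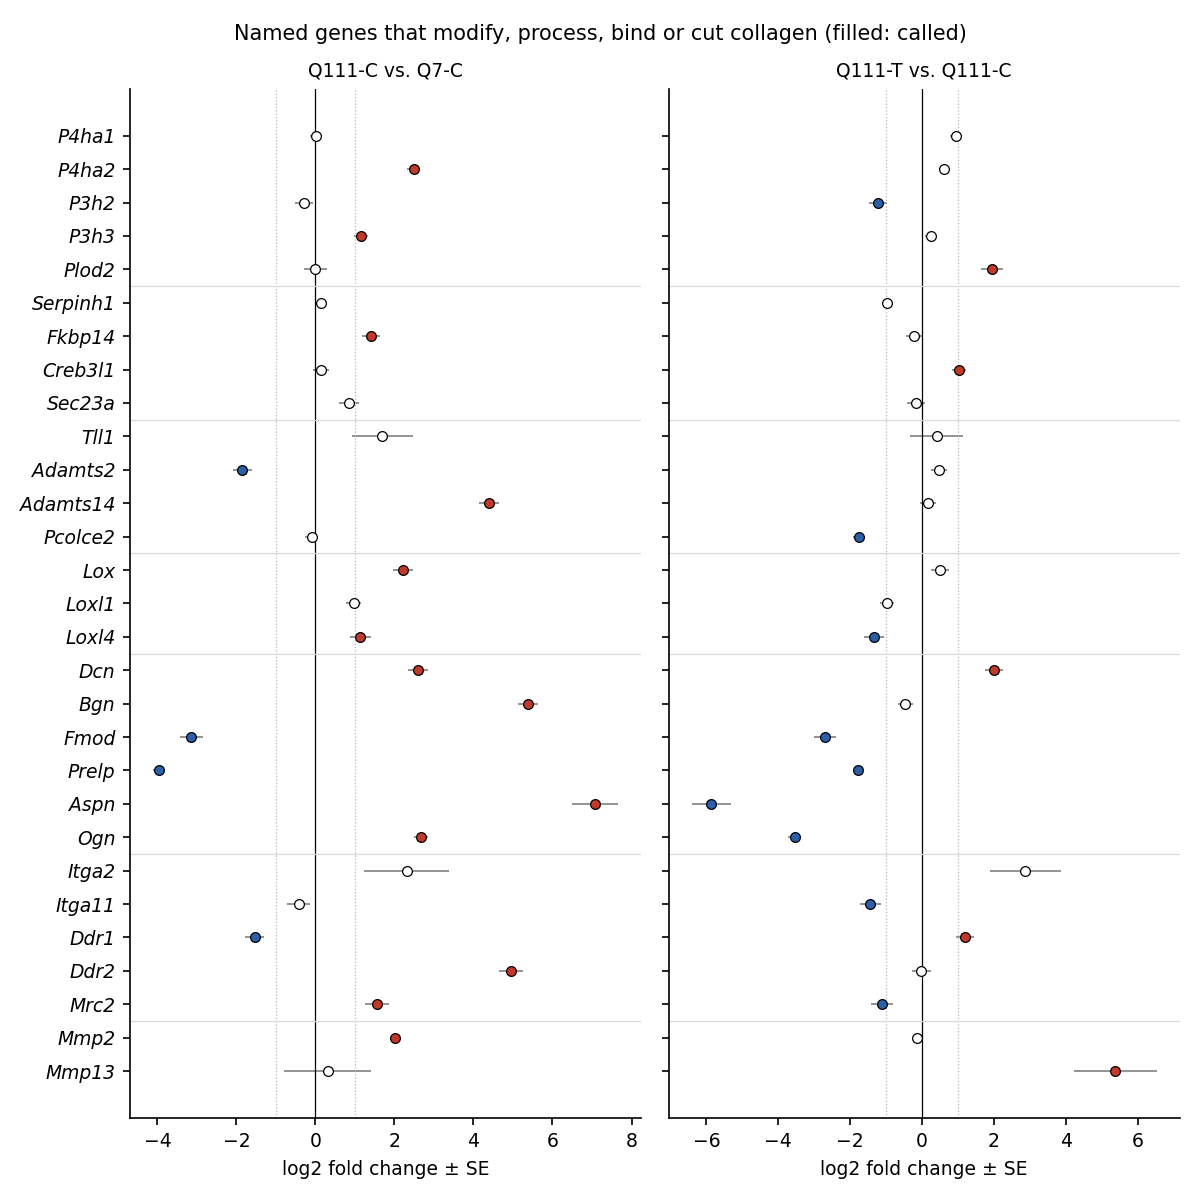
The log2 fold change and standard error of the 29 named genes that modify, process, bind or cut collagen are plotted for the control groups of the lines (Q111-C vs. Q7-C) and for the STHdhQ111 response (Q111-T vs. Q111-C). Filled points passed both thresholds (red upward, blue downward), dotted lines mark a 2-fold change, and grey lines separate the groups of genes. Aspn and Bgn stand highest in Q111-C vs. Q7-C, Prelp lowest, and Aspn is lowest in Q111-T vs. Q111-C.

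Markers of mesenchymal, mural and other cells also lay at different levels in the lines, and their part in the collagen results was not tested. Pdgfra, a fibroblast receptor, lay between 0.547 and 0.821 TPM in Q7-C and between 17.0 and 22.3 TPM in Q111-C. After treatment it lay between 0.515 and 1.32 TPM in Q7-T and between 7.10 and 11.4 TPM in Q111-T. Pdgfrb, of the same list, ranged from 27.6 to 46.3 TPM in Q7-C, 10.9 to 25.6 in Q7-T, 66.45 to 74.6 in Q111-C and 10.5 to 20.7 in Q111-T. Vim ranged from 2335 to 2651 TPM in Q7-C, 1718 to 1972 in Q7-T, 2397 to 2508 in Q111-C and 1147 to 1210 in Q111-T. Acta2, the smooth muscle actin, lay between 1605 and 1792 TPM in Q7-C and between 24.6 and 56.0 TPM in Q111-C. The sum of the 6 pericyte or smooth muscle markers ranged from 1697 to 1891 TPM in Q7-C, 1598 to 1718 in Q7-T, 43.4 to 75.5 in Q111-C and 48.8 to 65.1 in Q111-T, with Myh11 under 0.5 TPM throughout. Acta2 made up most of this sum in the STHdhQ7 groups. The sum of the fibroblast or mesenchymal list ranged from 3681 to 4034 TPM in Q7-C and from 4106 to 4218 in Q111-C, and after treatment from 2653 to 2818 in Q7-T and from 1772 to 1821 in Q111-T. Vim made up most of that sum in every group. Of the 6 astrocyte markers, Aqp4, Gfap, S100b and Slc1a2 were under 0.5 TPM throughout, and the list summed to between 1.05 and 1.98 TPM in Q7-C, 1.33 and 1.85 in Q7-T, 9.01 and 11.1 in Q111-C and 4.16 and 5.24 in Q111-T. The 2 that were tested were Slc1a3, a glutamate transporter, at 0.434 to 1.32 TPM in Q7-C, 0.473 to 1.35 in Q7-T, 8.60 to 10.6 in Q111-C and 2.25 to 3.00 in Q111-T, and Aldh1l1, which did not exceed 1.61 TPM, so that Slc1a3 made up most of the sum in Q111-C. The 7 neuron markers summed to between 22.6 and 27.7 TPM in Q7-C, 58.7 and 86.3 in Q7-T, 10.0 and 12 in Q111-C and 29.6 and 33.5 in Q111-T. The sum was higher with treatment in both lines, as was Tubb3, whereas Map2 lay between 4.41 and 10.6 TPM in Q7-C and between 0.604 and 3.11 TPM in Q7-T. In the Q111 groups Map2 ranges overlapped, at 5.49 to 6.12 TPM in Q111-C and 4.44 to 6.56 TPM in Q111-T. The epithelial list did not exceed 10.5 TPM in any library.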

How the data were processed

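Poly(A) RNA of 12 samples, 3 in each of 4 groups, had been prepared as stranded libraries and sequenced from both ends. Per the labels and the methods of the study, reads were cleaned with Cutadapt and in-house scripts, and their quality was checked with FastQC. The authors mapped them with HISAT2 to GRCm38 as released by Ensembl and assembled and quantified transcripts with StringTie. Tool versions and the strand setting of counting are not given in the sources used here. The authors deposited a table of TPM and of estimated counts per gene. Low estimated counts, from 5 to 60, were multiples of 4 more often than other even numbers (1.11 to 1.43 times), and 1 read pair was taken as 4 counts.

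The counts were rounded, scaled by TMM and tested with edgeR's quasi-likelihood test (edgeR 4.0.16, R 4.3.3), with a term for each of the 4 groups and 16127 genes that reached 0.5 TPM in 3 or more of the 12 libraries. P-values were adjusted over these genes by Benjamini-Hochberg, and standard errors came from the F statistic. Where no library of a group exceeded 12 counts (3 read pairs), the gene was called not detected there and folds are lower bounds, for counting error only. Levels and chain ratios are in TPM. Alternatives were DESeq2 1.42.0, limma 3.58.1 on log2(TPM + 0.5), log2(TPM + 0.1) or log2(TPM + 1), other filters and scalings, counts divided by 4, only the groups compared, a replicate block, each library left out, and, chosen after seeing the data, 2 libraries left out together. The procedure was tested on simulated data with known changes in Q111-T only. These data held no libraries low in long transcripts, their outcome is not given here, and no result rests on them. Replicates differed by more than sampling noise in every pair. The members and the lists were chosen with earlier results of these data known. Collagen genes are given by library if their mean was at least 1 TPM or they passed both thresholds anywhere. Of the collagen-handling genes, at most the 3 with the largest called change in each group of genes and comparison are named, and Serpinh1, P4ha1, Lox and Ddr2. Plots were drawn with matplotlib 3.10.9 in Python 3.11.15.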

Additional observations from a re-analysis of the deposited data

Results flagged for a closer look

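The responses of the lines to IFNγ/LPS differed past both thresholds, in the test of the interaction of line and treatment, for 5 collagen genes, or 17.2% of the 29 against 4.71% of all genes tested. None of the 5 calls held under every alternative run: those of Col6a1 and Col6a2 were lost with limma on log2(TPM + 0.5), that of Col6a1 also without Q7-C replicate 1 and Q7-T replicate 2 together, and those of Col5a3, Col9a3 and Col2a1 when any of several single libraries was left out. The interaction log2 fold change (the response of STHdhQ111 minus that of STHdhQ7 cells) was -1.14 for Col6a1 and -1.31 for Col6a2, both of which were downregulated in each line. It was 1.45 for Col5a3 and 2.48 for Col9a3. For Col2a1 it was 2.40, with -1.68 in STHdhQ7 and 0.71 in STHdhQ111 cells.

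Among the named collagen-handling genes, the interaction was -1.49 for Pcolce2, -5.54 for Aspn, -1.53 for Ogn (osteoglycin) and -1.32 for Loxl1, and 1.03 for P4ha1 and 2.55 for Plod2. Ogn had 35.3, 62.1 and 58.2 TPM in Q7-C, 15.3, 7.06 and 12 in Q7-T, 354, 434 and 427 in Q111-C and 29.2, 32.6 and 35.0 in Q111-T, and was downregulated in both lines. Loxl1 had 50.3, 55.1 and 55.4 TPM in Q7-C, 53.8, 58.4 and 62.3 in Q7-T, 134, 133 and 128 in Q111-C and 65.1, 58.7 and 63.9 in Q111-T, so that its Q111-T libraries came close to the Q7 libraries, and its interaction had an adjusted p of 0.0516 without Q7-C replicate 2 and 0.0504 without Q111-C replicate 1 (edgeR, 0.000456 to 0.0516 over all alternatives). For P4ha1, 7 single libraries ended the call when left out, with values from 0.87 (Q7-T replicate 2) to 1.01 (Q111-C replicate 2). The others were Q7-C replicates 2 and 3, Q111-C replicate 1 and Q111-T replicates 2 and 3.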

How the results depend on the processing

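Of 63 calls of collagen genes over the 5 comparisons, 45 held under every alternative run, 18 were lost under at least 1, and 0 changed direction. Of 82 values not called, 16 were called under at least 1 alternative and 23 changed sign. Of 66 calls of named collagen-handling genes, 47 held and 0 changed direction. The setting that ended most calls was limma on log2(TPM + 0.5), with 14 collagen calls lost and 4 gained, and DESeq2 lost 0 and gained 6. The count of collagen genes past both thresholds stayed between 14 and 19 for the control groups of the lines, 12 and 18 for the treated groups, 8 and 12 for the STHdhQ7 response and 13 and 18 for the STHdhQ111 response. For the interaction it was 3 with limma on log2(TPM + 0.5) and between 2 and 8 with single libraries left out: 8 without Q7-T replicate 2, 3 without Q7-C replicate 2 or Q111-T replicate 2, and 2 without Q111-C replicate 2 or 3 or Q111-T replicate 1 or 3. The cause was not tested. The count of collagen-handling genes in Q7-T vs. Q7-C was 8 with DESeq2 and 8 with counts divided by 4, in place of 5. The ratio of summed collagen TPM in Q111-C vs. Q7-C was 3.31 without Col6a1. With single libraries left out, the ratio ranged from 4.17 to 5.19 between the control groups, from 2.34 to 3.26 between the treated groups, from 0.401 to 0.556 in the STHdhQ7 response and from 0.257 to 0.316 in the STHdhQ111 response.

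Same-numbered libraries of different groups had correlations of their deviations from their group means from -0.416 to 0.303. With 3 libraries in a group, these values cannot show whether the replicate numbers pair the samples, and the labels do not say. With the replicate number as a block, 15, 17, 10, 14 and 5 collagen genes and 19, 28, 5, 16 and 6 collagen-handling genes passed, in the order control groups, treated groups, STHdhQ7 response, STHdhQ111 response and interaction. Depth limits the 7 tested genes with a mean under 1 TPM, and 3 libraries in a group limit every comparison.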
